A study of Mus musculus with 12 samples.

Results

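The regulatory T cell signature genes were 10 genes whose products mark or equip regulatory T cells: Foxp3, Ikzf2, Ikzf4, Il2ra, Ctla4, Tnfrsf18, Tnfrsf4, Lrrc32, Nrp1 and Izumo1r. They were taken by symbol from the table of raw counts, where each symbol had 1 row, and they make up 10 of its 49585 genes. All 10 passed the filter on low counts, which kept 13118 genes. The 12 RNA-seq libraries came from sorted lymph node (LN) T cells of 2 mouse strains, in 4 groups of 3 samples. B6 CD4+ and B6 CD8+ T cells came from C57BL/6 mice. CD8.1 and CD8.2 T cells came from mice of the strain labelled CD8 Dual (8in4 in the sample titles), in which Cd4 loci were altered to encode the CD8α.1 and CD8β chains in place of CD4, while intact Cd8 loci encode the CD8α.2 form. CD8.1 T cells therefore carry a CD8 co-receptor from the Cd4 locus and CD8.2 T cells carry one from the Cd8 locus. The labels give all mice as males of 6 to 10 weeks and name no treatment, while the methods of the study say that mice of both sexes were used. Cells of all groups were TCRβ+ (stained with antibody H57) and CD62L+. The methods of the study add a CD44- gate that the sample labels do not name, and neither source names a gate on CD25 or Foxp3. Activated regulatory T cells can be low in CD62L and high in CD44, and how many of them these gates left out was not measured.

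Regulatory T cells are a branch of CD4+ T cells that restrains immune responses. The transcription factor Foxp3 is needed for their identity, and they carry large amounts of the IL-2 receptor alpha chain (CD25, from Il2ra) and of the inhibitory receptor CTLA-4. In normal mice most of them arise from helper-lineage cells, and Foxp3+ cells are rare among resting CD8+ T cells. The study asked whether MHC class I-specific T cells whose co-receptor is encoded in the Cd4 locus take the helper lineage and its branches, which makes the levels of these genes in CD8.1 T cells, beside those in B6 CD4+ T cells, the comparison of interest.

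In the mouse reference genome (GRCm38, the mm10 build of the authors' alignment, with the GENCODE M21 annotation), the 10 genes lie on 8 chromosomes. Tnfrsf4 (4:156013843-156016612) and Tnfrsf18 (4:156026164-156028895) are neighbours on the plus strand of chromosome 4, with 9551 bases and 0 coding genes between them. Ctla4 (1:60887000-60915832, plus strand) lies between its relatives Cd28, 113640 bases away, and Icos, 62094 bases away, and Ikzf2 (1:69531214-69687245, minus strand) is on the same chromosome. Foxp3 spans X:7573644-7595245 on the plus strand and Il2ra spans 2:11642807-11693193 on the plus strand. The others are Ikzf4 (10:128630843-128645991, minus strand), Lrrc32 (7:98489283-98502181, plus strand), Nrp1 (8:128358604-128503363, plus strand) and Izumo1r (9:14885814-14903949, minus strand). Exons of Foxp3 share bases with exons of Flicr on the same strand and of Ppp1r3f, Gm36995 and Ccdc22 on the other. Exons of Ikzf2, Ikzf4 and Tnfrsf18 share bases with antisense RNA genes (Gm29114, Gm26876 and Gm16008), and those of Nrp1 with Mir1903. Use of strand in the counting is not given in the sources used here, so reads in these shared stretches could belong to either gene.

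Upstream sequences are shown for Foxp3, Il2ra and Ctla4, the 3 members described above as central to regulatory T cells. They are the RefSeq windows (GRCm38.p6) of 250 bases that end just before an annotated start of transcription, for Foxp3 (its second start, whose window holds no exon of Foxp3 itself, chrX:7580233-7580482), Il2ra (chr2:11642542-11642791) and Ctla4 (chr1:60908775-60909024), all on the plus strand. Capitals mark matches to the NFAT core GGAAAA or to the STAT palindrome TTCNNNGAA, searched on both strands. In Foxp3 these overlap and form 1 run, with the NFAT core 141 to 136 bases and the STAT palindrome 139 to 131 bases before the start. This Foxp3 window overlaps an exon of Flicr on the same strand. The 250 bases before the other Foxp3 start (chrX:7579426-7579675) are not shown and held 0 matches to these motifs.
Foxp3: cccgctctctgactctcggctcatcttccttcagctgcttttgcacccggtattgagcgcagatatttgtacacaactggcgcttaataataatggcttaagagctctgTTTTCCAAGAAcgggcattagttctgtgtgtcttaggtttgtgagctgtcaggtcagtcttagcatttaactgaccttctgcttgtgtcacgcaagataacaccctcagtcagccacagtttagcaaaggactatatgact
Il2ra: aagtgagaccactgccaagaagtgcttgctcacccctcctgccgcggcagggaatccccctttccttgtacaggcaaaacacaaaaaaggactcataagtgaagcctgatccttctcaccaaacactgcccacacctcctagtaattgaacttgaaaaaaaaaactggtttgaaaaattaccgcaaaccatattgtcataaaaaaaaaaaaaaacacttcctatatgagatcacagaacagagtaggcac
Ctla4: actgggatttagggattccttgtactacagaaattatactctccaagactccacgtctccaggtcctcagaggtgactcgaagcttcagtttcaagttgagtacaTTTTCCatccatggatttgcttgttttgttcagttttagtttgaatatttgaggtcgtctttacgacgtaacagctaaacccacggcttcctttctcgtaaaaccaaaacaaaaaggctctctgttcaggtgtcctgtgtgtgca

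Promoter windows of 300 bases (250 before to 50 after a start) were found for 7 of the 10 genes, with 8 windows in all, and Ikzf2, Ikzf4 and Lrrc32 were not among them. The NFAT core lay in 3 of the 8 windows (Foxp3 at its second start only, Ctla4 and Tnfrsf18) and in 23.4% of all 32851 promoter windows. The STAT palindrome lay in 2 windows (Foxp3 at its second start only and Tnfrsf18), against 8.3% of all windows. The Runx core TGTGGT lay in 1 window (Izumo1r), against 16.8%, and the forkhead core TGTTTAC in 0, against 3.65%. The Il2ra window shown above held none of the 4 motifs. These are matches of letters only, and binding was not measured.

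Before the comparisons, the libraries were compared with one another. Total counts were 18667474 to 37110502 per sample, so that 3 counts equalled 0.0875 to 0.167 on the scale of CPM (the counts of a gene scaled to the library total), and the deepest library was CD8.2 replicate 3. CD8.1 replicate 1 stood apart from the other CD8.1 libraries, with Pearson correlations across genes of 0.982 with both, against 0.988 between replicates 2 and 3. Some values that rest on it, but not all, are given with and without it. Cd4 transcripts were at 969 ± 53.0 CPM (SD, n = 3) in B6 CD4+ T cells but only at 49.7 ± 2.27 CPM in CD8.1 T cells, whose Cd4 locus is altered. CD8.1 T cells had the helper factor Zbtb7b at 154 ± 31.8 CPM, beside 159 ± 5.11 CPM in B6 CD4+ T cells. None of the 6 pan-T cell markers and none of the 7 naive T cell markers was called different between CD8.1 cells and B6 CD4+ cells. Nothing in the labels says that samples of a group came from separate animals, and the cells were pooled, so P values measure the spread between these samples, which may be technical.

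The signature genes were high in CD8.1 T cells, intermediate in B6 CD4+ T cells and low in both CD8.2 and B6 CD8+ T cells. Summed over the 10 genes, levels were 827 to 976 CPM in CD8.1 T cells, 378 to 488 CPM in B6 CD4+ T cells, 103 to 117 CPM in CD8.2 T cells and 98.8 to 106 CPM in B6 CD8+ T cells. All 10 were higher in CD8.1 T cells than in the B6 CD4+ group (edgeR quasi-likelihood test, Benjamini-Hochberg adjusted P under 0.05), where 6.94% of all tested genes were called higher. Their median log2 fold change was 1.46, beside 0.0025 over all genes tested, and the groups did not overlap for any of the 10, against 14.1% of all genes. Without CD8.1 replicate 1 all 10 were still called higher, with log2 fold changes from 0.35 (Tnfrsf18) to 2.19 (Lrrc32). All but Tnfrsf18, or 9 of the 10, were called without B6 CD4+ replicate 1 or 2, without CD8.1 replicate 2 or 3, with only these 2 groups in the fit and with the shared replicate block (0.31, adjusted P = 0.053). In RNA of pooled cells, a larger share of regulatory T cells and more RNA of these genes per cell cannot be told apart.

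**Figure D1:**
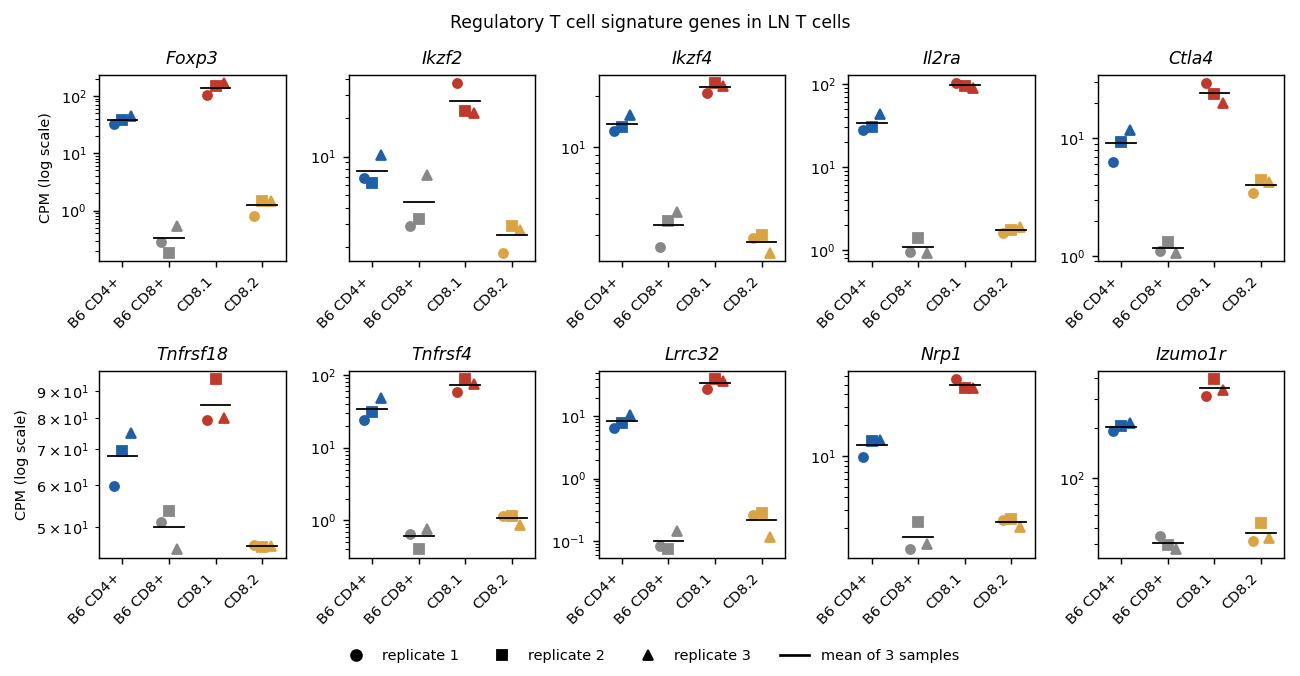
Level of each signature gene (CPM, log scale, with a different range in each panel) in the 3 samples of each group, with symbols for replicates and a bar for the mean. In all 10 panels the 3 CD8.1 samples lie above the 3 B6 CD4+ samples, and Tnfrsf18 alone stays above 45 CPM in all 12 samples.

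Foxp3, the transcription factor that defines the lineage, was at 32.6, 37.8 and 44.6 CPM in B6 CD4+ replicates 1, 2 and 3 and at 102, 149 and 168 CPM in CD8.1 replicates 1, 2 and 3. The lowest CD8.1 sample, replicate 1, was thus still above the highest B6 CD4+ sample. The log2 fold change was 1.87 ± 0.17 (SE), or 3.64-fold (edgeR, adjusted P = 1.18e-05), and 2.04 without CD8.1 replicate 1. In CD8.2 T cells Foxp3 was at 0.809, 1.44 and 1.46 CPM (19, 26 and 50 reads) and in B6 CD8+ T cells at 0.287, 0.182 and 0.529 CPM (7, 5 and 11 reads).

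Ikzf2 encodes Helios, an Ikaros-family factor carried by most regulatory T cells that arise in the thymus. Its levels were 6.78, 6.25 and 10.2 CPM in the B6 CD4+ samples and 37.2, 22.7 and 21.6 CPM in the CD8.1 samples, with CD8.1 replicate 1 well above the other CD8.1 samples. The log2 fold change was 1.81 ± 0.29 (edgeR, adjusted P = 0.00144), and 1.503 without that sample (adjusted P = 0.00246). Ikzf2 was the only member whose B6 subsets overlapped, since B6 CD8+ T cells had 2.91, 3.31 and 7.17 CPM. CD8.2 T cells had 1.79 to 2.89 CPM.

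Ikzf4 encodes Eos, a related factor that works with Foxp3 in silencing genes. It was at 12.4, 13.1 and 15.4 CPM in B6 CD4+ samples and at 20.7, 23.9 and 22.9 CPM in CD8.1 samples, with little spread in either. The difference of 0.72 ± 0.14 on the log2 scale was among the smaller ones (edgeR, adjusted P = 0.00527). CD8.2 T cells had 2.36 to 3.001 CPM and B6 CD8+ T cells 2.58 to 4.14 CPM, which overlapped.

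Il2ra, the chain that gives the IL-2 receptor its high affinity, was at 27.6, 30.05 and 43.2 CPM in B6 CD4+ samples and at 102, 95.3 and 89.2 CPM in CD8.1 samples. Every CD8.1 sample lay more than 2-fold above every B6 CD4+ sample, with a log2 fold change of 1.51 ± 0.14 (edgeR, adjusted P = 1.12e-05). In CD8.2 T cells Il2ra was at 1.58 to 1.90 CPM and in B6 CD8+ T cells at 0.914 to 1.38 CPM.

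Ctla4, which encodes a receptor that competes with CD28 for its ligands, was at 6.28, 9.27 and 11.9 CPM in B6 CD4+ samples and at 29.5, 23.7 and 20.1 CPM in CD8.1 samples. CD8.1 replicate 1 was the highest of these, and the log2 fold change of 1.42 ± 0.19 (edgeR, adjusted P = 4.15e-04) was 1.25 without it. Ctla4 was at 3.45, 4.45 and 4.23 CPM in CD8.2 T cells and at 1.06 to 1.31 CPM in B6 CD8+ T cells, with no overlap.

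Tnfrsf18 and its neighbour Tnfrsf4 encode the costimulatory receptors GITR and OX40. Tnfrsf18 was expressed at more than 45 CPM in every sample, at 59.9, 69.5 and 75.0 CPM in B6 CD4+ samples, 79.5, 94.6 and 80.1 CPM in CD8.1 samples, 46.4, 45.8 and 46.1 CPM in CD8.2 samples and 51.3, 53.7 and 45.5 CPM in B6 CD8+ samples. It had the smallest of the 10 differences, 0.31 ± 0.10 on the log2 scale (edgeR, adjusted P = 0.0449), and this call was lost without B6 CD4+ replicate 1 (adjusted P = 0.191) or replicate 2 (0.109) and without CD8.1 replicate 2 (0.193) or replicate 3 (0.0513). Tnfrsf4 was at 24.1, 30.5 and 47.7 CPM in B6 CD4+ samples and at 58.9, 86.8 and 75.8 CPM in CD8.1 samples, a log2 difference of 1.11 ± 0.20 (edgeR, adjusted P = 0.00244), while all 6 CD8.2 and B6 CD8+ samples had between 0.400 and 1.17 CPM. The neighbours thus differed in how far they were shared with the CD8.2 and B6 CD8+ groups, with Tnfrsf18 at 45.5 CPM or more in these 6 samples.

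Lrrc32 encodes GARP, which holds latent TGF-β on the cell surface. It had the largest difference of the 10 from the B6 CD4+ group, with 27.9, 39.2 and 36.99 CPM against 6.59, 7.85 and 10.4 CPM, or 2.07 ± 0.17 on the log2 scale (edgeR, adjusted P = 4.17e-06). The highest B6 CD4+ sample was far below the lowest CD8.1 sample. In CD8.2 T cells Lrrc32 had 6, 5 and 4 reads and in B6 CD8+ T cells 2, 2 and 3 reads, at or under the limit of 3 counts. The 571 reads of the B6 CD4+ samples against 7 in the B6 CD8+ samples gave a depth-adjusted ratio of 86.3 (exact 95% interval 41.6 to 216, for counting error only).

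Nrp1 encodes neuropilin-1, a surface receptor used to tell thymus-derived regulatory T cells from induced ones. It was at 9.87, 14.1 and 14.5 CPM in B6 CD4+ samples and at 56.1, 46.5 and 46.3 CPM in CD8.1 samples, with every CD8.1 sample above 3 times the highest B6 CD4+ sample and a log2 fold change of 1.95 ± 0.16 (edgeR, adjusted P = 3.63e-06). Izumo1r, for folate receptor 4, was at 192, 207 and 215 CPM in B6 CD4+ samples and at 313, 394 and 342 CPM in CD8.1 samples, a log2 fold change of 0.77 ± 0.11 (edgeR, adjusted P = 3.99e-04). It was also present in CD8.2 T cells, at 41.9 to 53.8 CPM, and in B6 CD8+ T cells, at 37.2 to 44.6 CPM, and those ranges overlapped.

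Between genes, levels were compared as CPM per kilobase of annotated exons. In CD8.1 T cells Izumo1r led with 150.7 ± 17.6 (SD, n = 3), followed by Tnfrsf18 at 55.6 ± 5.63 and Tnfrsf4 at 54.1 ± 10.3, which did not differ beyond their spread. Foxp3 came next at 30.5 ± 7.41, then Il2ra at 16.7 ± 1.12, Ctla4 at 10.5 ± 2.04, Lrrc32 at 7.40 ± 1.27, Nrp1 at 5.07 ± 0.57, Ikzf4 at 3.76 ± 0.27 and Ikzf2 at 2.34 ± 0.75 CPM per kilobase. In B6 CD4+ T cells the first 6 places were the same, with Foxp3 at 8.37 ± 1.31. Ikzf4, at 2.27 ± 0.26, then stood ahead of Lrrc32, at 1.76 ± 0.41, and Nrp1, at 1.31 ± 0.26, where it was behind both in CD8.1 T cells. In CD8.2 and B6 CD8+ T cells Tnfrsf18 was first, at 30.3 ± 0.17 and 32.9 ± 2.77 CPM per kilobase, and Foxp3 was in the seventh and the ninth place.

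The subsets of each strain were then compared. All 10 genes were higher in CD8.1 T cells than in the CD8.2 group (edgeR, adjusted P under 0.05, as were 14.9% of all tested genes) and without overlap (19.8% of all genes), with a median log2 fold change of 3.96 beside -0.00465 over all genes. The log2 fold change was 6.80 ± 0.25 for Foxp3, 6.15 ± 0.28 for Tnfrsf4, 5.77 ± 0.19 for Il2ra and 4.46 ± 0.19 for Nrp1. It was between 2.60 and 3.47 for Ikzf2, Ikzf4, Ctla4 and Izumo1r, and 0.88 ± 0.10 for Tnfrsf18. For Lrrc32 the fitted log2 value was 7.41 ± 0.28, against 4 to 6 reads per CD8.2 sample. By the limits the study set for differentially expressed genes (DEGs), a fold change over 5 with an unadjusted P under 0.05, 9 of the 10 were DEGs between these subsets, all but Tnfrsf18, beside 2.24% of all genes higher by that rule. None of the 10 passed it for CD8.1 cells against B6 CD4+ cells, where 0.419% of all genes did.

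In B6 mice 9 of the 10 were higher in CD4+ than in CD8+ T cells (11.4% of all tested genes) and did not overlap (19.4%), with a median log2 fold change of 2.96 beside -0.0011 over all genes, and 7 of the 10 were DEGs by the 5-fold rule (1.64%). Foxp3 had a log2 fold change of 6.89 ± 0.30, Tnfrsf4 of 5.83 ± 0.31, Il2ra of 4.93 ± 0.20, Ctla4 of 2.97 ± 0.25, Nrp1 of 2.95 ± 0.20, Izumo1r of 2.34 ± 0.11, Ikzf4 of 1.99 ± 0.16 and Tnfrsf18 of 0.44 ± 0.10. Ikzf2 was not called, with a log2 fold change of 0.82 ± 0.32 (edgeR, adjusted P = 0.0767). With a block for the replicate number of each strain, its value was 0.85 and it passed the test (adjusted P = 0.018), as it did without B6 CD8+ replicate 3 (adjusted P = 0.00567).

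Whether this gap between subsets differed between the strains was tested as an interaction in the same model. The gap was larger in CD8Dual mice for 3 of the 10 genes (edgeR, adjusted P under 0.05, as for 1.58% of all tested genes), namely Ikzf2 by 2.65 ± 0.45 (adjusted P = 0.00431), Nrp1 by 1.51 ± 0.29 (0.0109) and Ikzf4 by 1.06 ± 0.23 (0.0237) on the log2 scale. The call for Ikzf4 was lost without any 1 of 8 samples (B6 CD4+ replicates 1 and 2, B6 CD8+ replicates 2 and 3, CD8.1 replicates 2 and 3, CD8.2 replicates 1 and 3), with adjusted P from 0.0519 to 0.108, and that for Nrp1 without B6 CD8+ replicate 2 (0.0854) or CD8.2 replicate 3 (0.0531). For Foxp3 the interaction was -0.09 ± 0.45, so that its gap of more than 100-fold between the subsets was not shown to differ between strains. Without CD8.1 replicate 1, Izumo1r (0.64, adjusted P = 0.0117) and Tnfrsf18 (0.47, 0.0445) passed as well, and Izumo1r also passed without CD8.2 replicate 2 (adjusted P = 0.0263) and in the fit with the block (0.57, adjusted P = 0.0256). Il2ra (0.84 ± 0.31, adjusted P = 0.244) passed without B6 CD4+ replicate 3 (1.05, adjusted P = 0.0234).

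Between the CD8.2 and B6 CD8+ groups, 2 of the 10 genes were called higher in CD8.2 T cells (3.29% of all tested genes), and the median log2 fold change was 0.56 beside -0.00355 over all genes. Ctla4 was higher by 1.79 ± 0.26 on the log2 scale (edgeR, adjusted P = 7.63e-04). Foxp3 was higher by 1.96 ± 0.47 (adjusted P = 0.019), with 19 to 50 against 5 to 11 reads, and this call was lost without B6 CD8+ replicate 1 (adjusted P = 0.0687) or replicate 2 (0.0976) and without CD8.2 replicate 2 (0.059) or replicate 3 (0.101). Foxp3, Il2ra, Ctla4 and Tnfrsf4 did not overlap between these groups (4 of 10, beside 17.7% of all genes). The 3 markers of the CD4 lineage, Cd4, Zbtb7b and Cd40lg, summed to 4.55 to 4.98 CPM in CD8.2 T cells and, in the B6 CD8+ group, to 1.78 to 2.46 CPM, against 1187 to 1271 CPM in B6 CD4+ T cells. Their part in the higher Foxp3 was not tested.

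**Figure D2:**
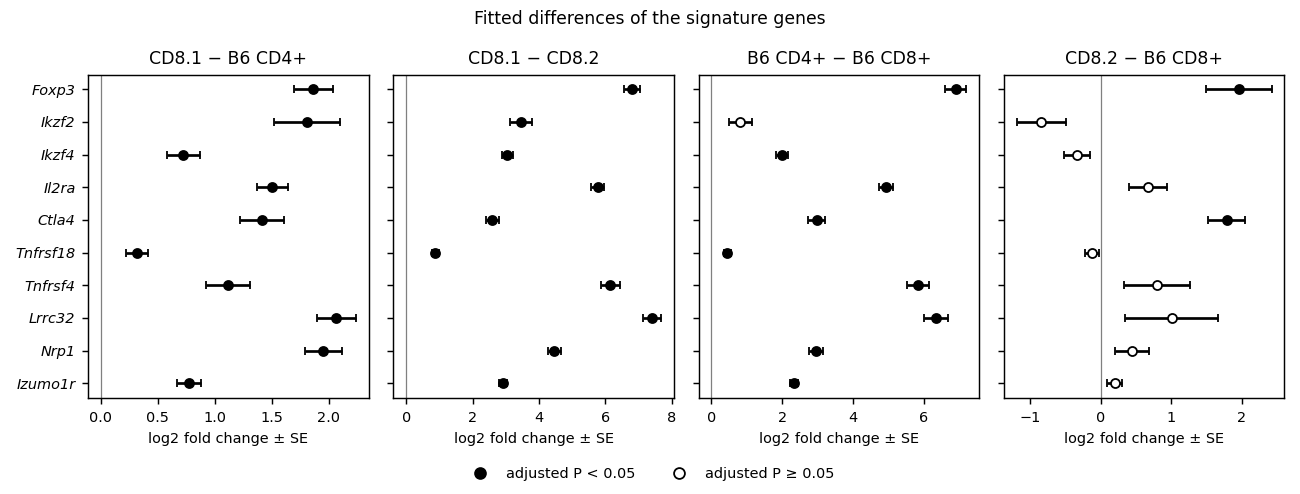
Log2 fold change with its standard error for each signature gene in 4 comparisons, each named above its panel as first group minus second group. Filled points passed an adjusted P of 0.05, as all 10 genes did for CD8.1 cells against B6 CD4+ and CD8.2 T cells, 9 did in B6 mice and 2 did for CD8.2 against B6 CD8+ T cells.

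Whether the genes scaled together was read from each sample's level relative to the mean of the 3 B6 CD4+ samples. This is a description over few samples, with no test and no correlation across the separate groups. Within the B6 CD4+ group the 10 genes moved alike. Replicate 1 was at 0.687 to 0.937 of the mean, replicate 2 at 0.807 to 1.10 and replicate 3 at 1.05 to 1.40, while the median over all genes stayed at 0.998 to 0.999 in each. Replicate 3 was the highest of its group in 10 of 10 genes and replicate 1 the lowest in 9, whereas over all tested genes replicates 1, 2 and 3 were the highest in 35.2%, 28.4% and 36.4%. This order was not particular to the signature. Markers of activated or memory T cells summed to 206, 237 and 284 CPM in B6 CD4+ replicates 1, 2 and 3. Sums of B cell, follicular helper, myeloid and dendritic, and NK or NKT cell markers rose in that order too. Those of pan-T, naive, CD4 lineage and cycling cell markers did not.

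The CD8.1 samples did not show 1 common factor. CD8.1 replicate 1 had ratios from 1.17 (Tnfrsf18) to 4.80 (Ikzf2) with a median of 2.85, replicate 2 from 1.39 (Tnfrsf18) to 4.74 (Lrrc32) with a median of 2.71, and replicate 3 from 1.18 (Tnfrsf18) to 4.47 (Lrrc32) with a median of 2.44. The largest ratio was 3.41 to 4.11 times the smallest within a CD8.1 sample, against 1.33 to 1.36 times within a B6 CD4+ sample. The B6 CD4+ samples were divided by their own mean, so their ratios lie near 1 by construction. The CD8.1 ratios also hold each gene's difference between the groups, so these spreads are not like for like. The mean over the CD8.1 samples divided by that over the B6 CD4+ samples was 4.19 for Lrrc32, 3.88 for Nrp1, 3.65 for Foxp3, 3.51 for Ikzf2, 2.84 for Il2ra, 2.68 for Ctla4, 2.17 for Tnfrsf4, 1.71 for Izumo1r, 1.65 for Ikzf4 and 1.24 for Tnfrsf18.

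The order of the CD8.1 samples also differed between genes. Replicate 1 was the highest of the CD8.1 samples for Ikzf2, Il2ra, Ctla4 and Nrp1 and the lowest for the other 6 genes, Foxp3 among them. Replicate 2 was the highest for 5 genes and replicate 3 for Foxp3 alone. Over all tested genes the shares of genes with the highest level were 36.4%, 32.7% and 30.9% for CD8.1 replicates 1, 2 and 3. Without replicate 1, the median ratio over the 10 genes went from 2.76 to 2.57.

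**Figure D3:**
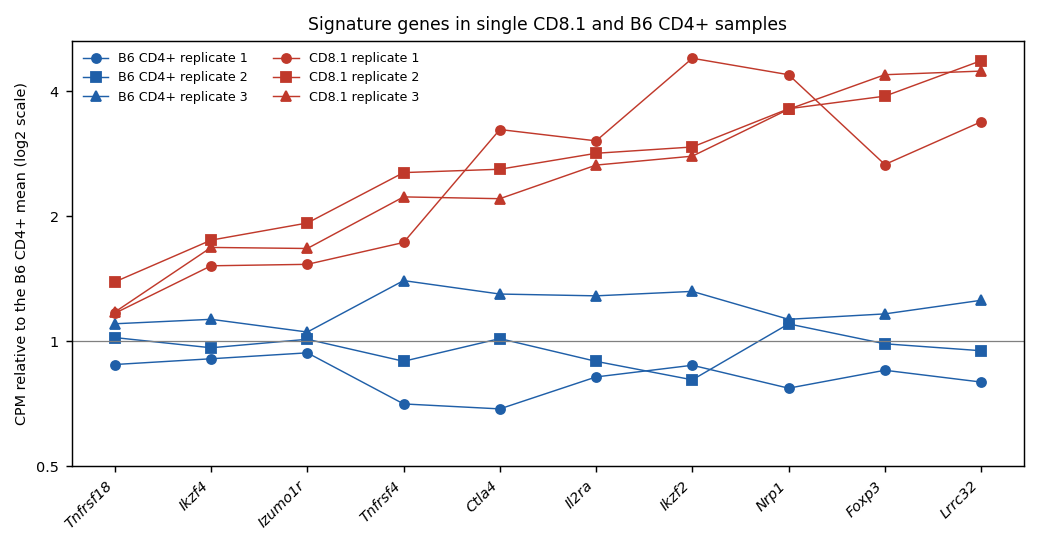
Level of each signature gene in each B6 CD4+ (blue) and CD8.1 (red) sample, divided by the mean of the 3 B6 CD4+ samples (log2 scale), with genes ordered from Tnfrsf18 to Lrrc32 and lines joining the values of 1 sample. The B6 CD4+ lines lie between 0.687 and 1.40, near 1 because these samples were divided by their own mean. The CD8.1 lines go from 1.17 to 1.39 at Tnfrsf18 to 3.38 to 4.74 at Lrrc32. Genes were ordered roughly by these CD8.1 ratios, so the climb follows from the order. The line of CD8.1 replicate 1 crosses the others.

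The ratios were also computed net of the level in the cytotoxic-type subset of the same strain. With the CD8.2 mean subtracted from each CD8.1 sample and the B6 CD8+ mean from each B6 CD4+ sample, the ratio went from 1.24 to 2.15 for Tnfrsf18 and from 3.51 to 7.53 for Ikzf2, while that of Foxp3 stayed at 3.65 and those of Izumo1r and Ikzf4 were 1.85 and 1.94. The median over the 10 genes was 2.72.

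Levels relative to Foxp3 in the same sample of CD8.1 T cells were compared with those of B6 CD4+ T cells by a two-sided exact permutation test, whose smallest possible P with 3 against 3 samples is 0.1. Relative to Foxp3, 4 of the other 9 genes were lower in CD8.1 T cells without overlap, as were 92.2% of all tested genes, with Foxp3 itself higher. Tnfrsf18 was at 1.79 ± 0.089 times the Foxp3 level in B6 CD4+ T cells (SD, n = 3) and at 0.630 ± 0.15 times in CD8.1 T cells (exact P = 0.1), and Izumo1r at 5.39 ± 0.53 and 2.58 ± 0.52 times (exact P = 0.1). Ikzf4, from 0.358 ± 0.019 to 0.167 ± 0.034, and Tnfrsf4, from 0.872 ± 0.18 to 0.537 ± 0.074, were the other two (exact P = 0.1 for each). The remaining 5 overlapped: Lrrc32 at 0.214 ± 0.016 and 0.252 ± 0.028 times the Foxp3 level (exact P = 0.2), Nrp1 at 0.333 ± 0.036 and 0.379 ± 0.15 (0.9), Ikzf2 at 0.201 ± 0.032 and 0.215 ± 0.13 (0.9), Il2ra at 0.870 ± 0.090 and 0.723 ± 0.25 (0.4) and Ctla4 at 0.235 ± 0.038 and 0.189 ± 0.089 (0.4) in B6 CD4+ and CD8.1 T cells. Without CD8.1 replicate 1, whose Foxp3 was the lowest of its group, 7 of the 9 were lower in CD8.1 T cells without overlap, all but Lrrc32 and Nrp1. Groups separate more easily with fewer samples, and the share of all genes was not computed for this setting.

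Other genes known to be higher in regulatory than in conventional CD4+ T cells were taken as a list of 32, of which 30 were tested (Il10 and Areg had too few counts). Of the 30, 24 were higher and 0 lower in CD8.1 cells than in B6 CD4+ cells (23 without CD8.1 replicate 1), with a median log2 fold change of 1.16. Of all tested genes, 6.94% were higher. Itgae, the αE integrin CD103, was at 29.1 ± 1.78 against 4.62 ± 1.53 CPM (SD, n = 3; log2 fold change 2.65 ± 0.16, edgeR adjusted P = 9.07e-08), yet it was far higher in B6 CD8+ T cells, at 246 ± 15.9 CPM. Il1rl1, the IL-33 receptor ST2, was at 11.8 ± 2.65 against 1.42 ± 0.61 CPM (3.05 ± 0.28, adjusted P = 2.75e-05) and had 0 reads in B6 CD8+ T cells. Entpd1, the ectonucleotidase CD39, was at 8.14 ± 1.49 against 1.76 ± 0.42 CPM (2.21 ± 0.24, adjusted P = 5.41e-05), and Nrn1, for neuritin, at 17.6 ± 3.07 against 5.38 ± 1.47 CPM (1.71 ± 0.19, adjusted P = 8.31e-05).

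Gzmb, for granzyme B, which both activated regulatory and cytotoxic T cells can make, was at 5.73 ± 1.08 CPM in CD8.1 T cells against 0.909 ± 0.41 CPM in B6 CD4+ T cells (log2 fold change 2.64 ± 0.34, edgeR adjusted P = 2.29e-04), and at 0.945 ± 0.16 CPM in CD8.2 T cells. The 6 genes of the list that did not pass were Gpr83, Ccr8, Irf4, Prdm1, Swap70 and Ecm1, of which Ccr8, a chemokine receptor, had a log2 fold change of -0.43 and Gpr83 of 0.22. Of the same 30 genes, 28 were higher and 1 lower (Itgae) in CD8.1 cells than in CD8.2 cells, where 13.8% of all genes were lower, and 21 were higher and 4 lower in the CD4+ than in the CD8+ group of B6 mice, where 11.7% of all genes were lower. From B6 CD8+ to CD8.2 T cells 4 were higher and 4 lower (4.66% of all genes were lower), with 2 higher without B6 CD8+ replicate 1 or CD8.2 replicate 2, and the interaction was positive for 10 and negative for 0 (0.29% of all genes).

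**Figure D4:**
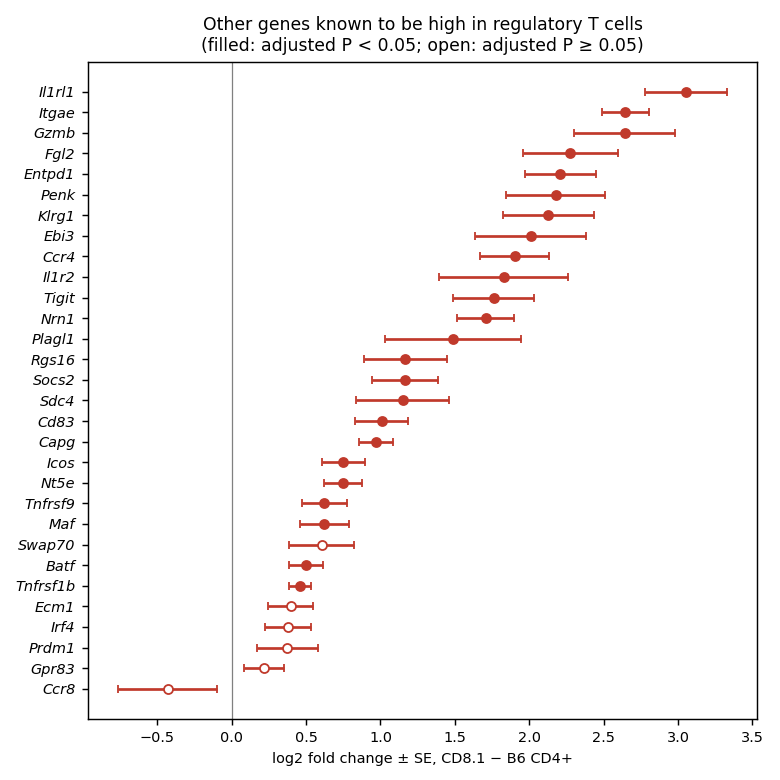
Log2 fold change with its standard error, CD8.1 minus B6 CD4+ T cells, for the 30 tested genes of the list of other genes known to be high in regulatory T cells. Of the 30, 24 passed an adjusted P of 0.05 (filled), all on the positive side, and Il1rl1 lies farthest out at 3.05.

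Genes known to be lower in regulatory than in conventional CD4+ T cells moved less. Of 7 tested (Il2 had too few counts), 3 were lower and 0 higher in CD8.1 cells than in B6 CD4+ cells, where 5.82% of all tested genes were called lower. They were Satb1, a chromatin organizer, at 458 ± 28.0 against 603 ± 11.2 CPM (log2 fold change -0.40, edgeR adjusted P = 0.00159), Pde3b, a phosphodiesterase (-0.54, adjusted P = 0.00286), and Igfbp4, a binding protein of insulin-like growth factors (-0.33, adjusted P = 0.0236). The other 4 were not called, and the median over the 7 was -0.19 on the log2 scale.

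IL-2 signals through its receptor to STAT5, which sustains Foxp3. Of 11 tested genes of this pathway, 3 were higher and 1 was lower in CD8.1 cells than in B6 CD4+ cells, with a median log2 fold change of 0.29. Of all tested genes, 6.94% were higher and 5.82% lower. Socs2, 1 of the 3, is also in the list of other genes high in regulatory T cells. Il2rb, the β chain shared with the IL-15 receptor, was at 242 ± 17.4 against 95.2 ± 14.3 CPM (1.35 ± 0.10, edgeR adjusted P = 8.88e-07), and at 473 ± 19.6 CPM in B6 CD8+ T cells. Cish, a STAT5 target that dampens cytokine signals, was at 27.3 ± 1.49 against 16.4 ± 0.83 CPM (0.73 ± 0.12, adjusted P = 0.00145), and its relative Socs2 at 5.50 ± 0.57 against 2.45 ± 0.74 CPM (1.17 ± 0.22, adjusted P = 0.00422). Socs1 (0.30, adjusted P = 0.115) and Socs3 (0.32, adjusted P = 0.185) did not pass.

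Among 19 factors known to act on the Foxp3 gene, 0 were higher and 6 were lower in CD8.1 cells than in B6 CD4+ cells, and the median log2 fold change was -0.028. In this comparison 6.94% of all tested genes were called higher and 5.82% lower. Bcl11b, a zinc-finger factor of T cell identity, fell by 0.59 ± 0.11 on the log2 scale (edgeR, adjusted P = 0.00334), the DNA demethylating enzyme Tet3 fell by 0.63 ± 0.13 (0.0067) and the forkhead factor Foxo1 fell by 0.29 ± 0.07 (0.0138). Nr4a1, an early gene of T cell receptor signalling, did not pass, at 63.0 ± 9.68 against 57.8 ± 19.2 CPM (adjusted P = 0.72). Of 5 tested relatives of Ikzf2, Ikzf4 and Foxp3, 0 were higher and 2 were lower, Ikzf1 by -0.28 (adjusted P = 0.0151) and Foxp1 by -0.41 (0.0172), while Ikzf3 had -0.07 (0.639). Foxp1 is also 1 of the 6 lower factors above. Of 9 relatives of the receptor members, 5 were higher and 0 lower, with a median log2 fold change of 0.46. They included Tnfrsf1b, the TNF receptor TNFR2, at 119 ± 4.44 against 86.6 ± 6.87 CPM (0.46 ± 0.07, adjusted P = 0.00117), the costimulator Icos (0.75 ± 0.15, adjusted P = 0.0045) and Nrros, a relative of Lrrc32 (0.40 ± 0.09, adjusted P = 0.00815). Tnfrsf1b, Icos and Tnfrsf9, also higher, are in the list of other genes high in regulatory T cells as well, so they are counted in both.

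The 10 genes outside the signature whose log2 CPM was most like that of Foxp3, by Pearson r over all 12 samples, were Cd81, Maf, Tbc1d4, Socs2, Pdcd1, Chdh, D630039A03Rik, Trbv2, Tes and Sp6, with r from 0.991 for Cd81 to 0.985 for Sp6. The r is a description, since the 12 points fall into 4 separate groups of 3. The signature genes themselves had r with Foxp3 from 0.843 (Ikzf2) and 0.902 (Tnfrsf18) up to 0.989 (Lrrc32) and 0.991 (Tnfrsf4). Cd81, a tetraspanin, had 46.9 ± 7.82 CPM (SD, n = 3) in CD8.1 T cells, 26.5 ± 6.73 CPM in B6 CD4+ T cells, 3.47 ± 0.85 CPM in CD8.2 T cells and 1.91 ± 1.02 CPM in B6 CD8+ T cells. Of the 10, 7 were called higher in CD8.1 cells than in B6 CD4+ cells, beside 6.94% of all tested genes, and Pdcd1, Trbv2 and Tes were not. These genes were picked for their likeness to Foxp3, itself higher in CD8.1 cells, so the count follows in part from the picking.

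Some markers of other cells and states were also called higher in CD8.1 cells than in B6 CD4+ cells, as were 6.94% of all tested genes. All 8 markers of activated or memory T cells were higher in CD8.1 cells than in B6 CD4+ cells, with a median log2 fold change of 1.37, and their summed level was 539 to 669 CPM against 206 to 284 CPM. They included Cd44, at 72.0 ± 5.13 against 35.1 ± 2.16 CPM, the gene whose product the methods name as a sort gate. In the B6 CD8+ group, where the signature genes were low, the same markers summed to 1482 to 1843 CPM. Their means did not all go the same way. Ly6c2 (765 against 16.6 CPM), Il2rb, Cxcr3 and Ccl5 were higher there than in CD8.1 T cells. Lgals1 (92.8 against 192 CPM), Cd44, S100a4 and S100a6 were lower there. B cell markers summed to 93.8 to 146 CPM in CD8.1 T cells against 67.2 to 84.0 CPM in B6 CD4+ T cells, with 2 of 6 called higher, and myeloid and dendritic cell markers to 12.7 to 17.0 CPM against 3.82 to 7.06 CPM, with 2 of 5 tested called higher. Markers of follicular helper T cells summed to 125 to 144 CPM against 103 to 116 CPM, with 2 of 6 called higher, and those of cycling cells to 35.7 to 67.4 CPM against 20.003 to 43.2 CPM, with 1 of 5 called higher. Markers of NK or NKT cells summed to 8.97 to 12.5 CPM against 2.96 to 5.66 CPM, with 1 of 3 tested called higher, and Zbtb16 and Il4 had 0 reads in B6 CD4+ T cells. None of these lists had a marker called lower. Their part in the levels of the signature genes was not tested.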

How the data were processed

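RNA-seq counts of 12 libraries were used, 3 in each of 4 groups. The authors used a low-input kit for full-length cDNA, aligned read pairs to mm10 with STAR and deposited raw whole-number counts per gene from RSEM, without normalization. The submitters' notes also name limma. Tool versions, the annotation release and use of strand are not given in the sources used here.

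All samples were fitted in 1 model in R 4.3.3 with edgeR 4.0.16 (TMM, filterByExpr, glmQLFit, glmQLFTest), tested on simulated data first, which left 13118 of 49585 genes. Genes were called at a Benjamini-Hochberg adjusted P under 0.05 over these genes. CPM used TMM-adjusted library sizes, and log2 CPM a prior count of 2. Intervals cover counting error only. Comparisons with a group in common share its samples.

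The 10 genes, the lists and the tests were chosen with earlier results of these data known. Beside the 10 genes, those named were the 10 most like Foxp3, the 4 (first list) or 3 with the smallest P for CD8.1 cells against B6 CD4+ cells in each list, and genes named in the study's methods. Cd44, and genes of the first list that did not pass or that are named in the closing section, were added after their values were seen.

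Same-numbered B6 CD4+ and B6 CD8+ samples deviated together (correlations of deviations 0.126, 0.138 and 0.257), a pairing that comes from the numbers in the labels and these values. Replicates differed by more than sampling noise (chi-square per gene 8.81 to 88). Alternatives were DESeq2 1.42.0 (size factors, Wald test), limma-voom 3.58.1, other filters, the 5-fold rule, fits of only the groups compared, replicate blocks and leaving out each sample.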

Additional observations from a re-analysis of the deposited data

Results flagged for a closer look

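For 16 genes chosen among those named in the text, the gap between the subsets differed between the strains in the test of the difference itself (edgeR, adjusted over all genes tested). It was more positive in CD8Dual mice for 14 of them and smaller for Cd4 and Cd40lg. Of all tested genes, 1.58% were called more positive and 0.29% less positive. Some of the 16 were named only after their values were seen, so the count is no result about the named genes as a set. Other named genes passed too. Of the 8 markers of activated or memory T cells, 7 were called more positive, of which only Cd44 and Il2rb are among the 16. On the log2 scale the differences were 2.65 for Ikzf2 (adjusted P = 0.00431), 1.51 for Nrp1 (0.0109) and 1.06 for Ikzf4 (0.0237) among the signature genes. For all 3, the fitted difference was toward the helper-type subset in both strains, with 3.47 in CD8Dual and 0.82 in B6 mice for Ikzf2, 4.46 and 2.95 for Nrp1, and 3.05 and 1.99 for Ikzf4. The value of Ikzf2 in B6 mice was not called (edgeR, adjusted P = 0.0767), and its B6 groups overlapped.

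Among the other genes chosen, the differences were 3.93 for Itgae (adjusted P = 1.91e-08), 1.93 for Il2rb (4.78e-07), 1.496 for Entpd1 (0.0287), 0.98 for Cish (0.00962) and 0.64 for Tnfrsf1b (0.0024). Itgae and Il2rb were lower in the helper-type than in the cytotoxic-type subset of both strains, by log2 values of -1.79 in CD8Dual and -5.73 in B6 mice for Itgae and of -0.39 and -2.31 for Il2rb. Entpd1 (0.97 and -0.52) and Tnfrsf1b (0.29 and -0.35) had opposite signs in CD8Dual and B6 mice. Further differences were Fgl2 (4.46, adjusted P = 5.49e-05), Plagl1 (3.50, 0.0444), Gzmb (3.45, 9.78e-04), Tigit (3.40, 2.67e-04) and Gpr83 (2.87, 4e-06), and Cd44 had 0.92 (0.00601). For Cd4, whose locus is altered in CD8Dual mice, the difference was -6.93 (adjusted P = 8.02e-10). For Cd40lg, the CD40 ligand of helper T cells, it was -0.94 (adjusted P = 0.0179), from gaps of 6.01 in CD8Dual and 6.95 in B6 mice. No outlier test was applied to single values, since each group held 3 samples.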

How the results depend on the processing

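Across 729 refitted values of the 10 genes, 0 turned the direction of a called difference. Against CD8.2 T cells, all 140 values for CD8.1 T cells stayed on the same side of the threshold. Against B6 CD4+ T cells, 124 of 130 did, and the other 6 were all Tnfrsf18 (adjusted P of 0.0513 to 0.193, among them the fit of only the groups compared at 0.144 and the shared replicate block at 0.053). In B6 mice the 3 changes were Ikzf2 (no filter, the replicate block within each strain at adjusted P = 0.018, and without B6 CD8+ replicate 3 at 0.00567).

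The count of signature genes called between CD8.2 and B6 CD8+ T cells went from 2 to 1 with limma-voom, 5 without a filter and 0 by the 5-fold rule, and was 1 to 2 with a sample left out. The interaction count went from 3 to 5 without a filter and 1 by the 5-fold rule, and was 1 to 5 with a sample left out (5 without CD8.1 replicate 1, 1 without B6 CD8+ replicate 2 or CD8.2 replicate 3). By the 5-fold rule 0 signature genes passed for CD8.1 cells against B6 CD4+ cells. Of the list of other genes high in regulatory T cells, 3 passed that rule there, 15 against CD8.2 T cells, 11 in B6 mice, 2 between CD8.2 and B6 CD8+ T cells and 6 in the interaction. Between CD8.2 and B6 CD8+ T cells 10 of that list passed without a filter and 2 to 6 with a sample left out. Over all genes, 1674 calls for CD8.1 cells against B6 CD4+ cells became 674 with only the groups compared, and 765 to 2958 with a sample left out (2958 without CD8.1 replicate 1). From B6 CD8+ to CD8.2 T cells 1042 became 1593 without a filter, 2515 with only the groups compared and as few as 431 without B6 CD8+ replicate 2. The interaction's 245 became 410 with DESeq2, 620 without a filter and 1356 without CD8.1 replicate 1. The cause of these moves was not tested, beyond that the 5-fold rule asks for a larger difference. The median ratio of CD8.1 to B6 CD4+ levels, 2.76, was 2.46 to 3.23 with a sample left out, and the count of genes lower relative to Foxp3 was 4 to 7 (7 without CD8.1 replicate 1). It was 3 with the level of the cytotoxic-type subset subtracted. Leaving out samples for these last values was chosen after seeing the data.

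Among the 10 genes, the replicate blocks changed only the calls of Tnfrsf18 and Ikzf2 above and of Izumo1r in the interaction. Of the list of other genes high in regulatory T cells, the block within each strain moved the interaction count from 10 to 13, and the shared block moved the count in B6 mice from 21 to 20. The interaction of Nrp1 missed the threshold with limma-voom (adjusted P = 0.0503). With 3 samples a group, a few reads per sample limit what can be said of Foxp3 and Lrrc32 in CD8.2 and B6 CD8+ T cells. Of the 10 genes most like Foxp3, 9 were also found with a prior count of 0.5.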

Other observations

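Of the genes known to be high in regulatory T cells, some moved within the cytotoxic-type subsets, from B6 CD8+ to CD8.2 T cells. Nrn1 was higher by 1.66 on the log2 scale (edgeR, adjusted P = 5.18e-04), Prdm1, for the factor Blimp-1, by 1.19 (0.011), Irf4 by 0.99 (0.00241) and Cd83 by 0.72 (0.0263). Gpr83 (-2.65, adjusted P = 1.99e-06), Fgl2 (-2.18, 0.00139), Tigit (-1.64, 0.0068) and Itgae (-1.29, 3.67e-05) were lower. These genes were picked after their values were seen, and the values are given as a description.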
